A study of Mus musculus with 6 samples.

Results

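The 10 genes described here encode the kinase PINK1, receptors and adaptors that mark mitochondria for removal, and 2 proteins of the autophagy machinery that receives them. They were chosen by name, as the rows called Pink1, Bnip3, Bnip3l, Fundc1, Bcl2l13, Phb2, Sqstm1, Optn, Ulk1 and Map1lc3b among the 55414 genes of the table. All 10 were found, and all 10 were among the 14916 genes that reached a mean of 1 TPM over the 6 libraries and entered the test. TPM divides a gene's reads by its transcript length and sets them on a common total for each library, so levels can be set side by side between genes. The tissue was mouse hippocampus, in 2 groups of 3 libraries, treated with CerM or with vehicle. What CerM stands for, its dose and its duration are not in the labels, nor are the strain, sex or age of the animals. The series title names ceramides, gut bacteria, depression caused by corticosterone, and mitochondrial function. The samples are labelled as biological replicates, but not as 1 mouse each. What the p-values weigh is therefore the scatter among these 6 samples, whatever its source.

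Mitophagy is the removal of mitochondria by autophagy. In the PINK1 route, the kinase is imported and degraded in healthy mitochondria, builds up on the outer membrane of damaged ones, and sets off the tagging of their surface with ubiquitin; adaptor proteins then tie the ubiquitin chains to LC3 on the growing autophagosome. In the receptor route, proteins anchored in the mitochondrial membrane bind LC3 themselves, without ubiquitin. Both routes have been studied in neurons. Much of the control in both routes acts on proteins, which RNA levels do not show.

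No difference between CerM and vehicle hippocampus in these genes was larger than the test could tell from the spread of 3 libraries a group. None of the 10 genes passed limma's test at an adjusted p below 0.05, and none of all tested genes did (0%). Bnip3, which encodes a receptor on the outer mitochondrial membrane, was the only one of the 10 whose groups did not overlap, with means of 147.6 ± 3.87 TPM (SD, n = 3) under CerM and 166.9 ± 10.8 (n = 3) under vehicle. Of all tested genes, 4.04% had CerM entirely below vehicle and 3.26% entirely above, and 1 of 10 is not read as a result about the list. Pink1 leaned the same way at 247.3 ± 15.8 against 267.2 ± 20.2 TPM, with overlapping groups. For Pink1 and the other 8, the means differed by less than the larger of both group SDs.

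**Figure D1:**
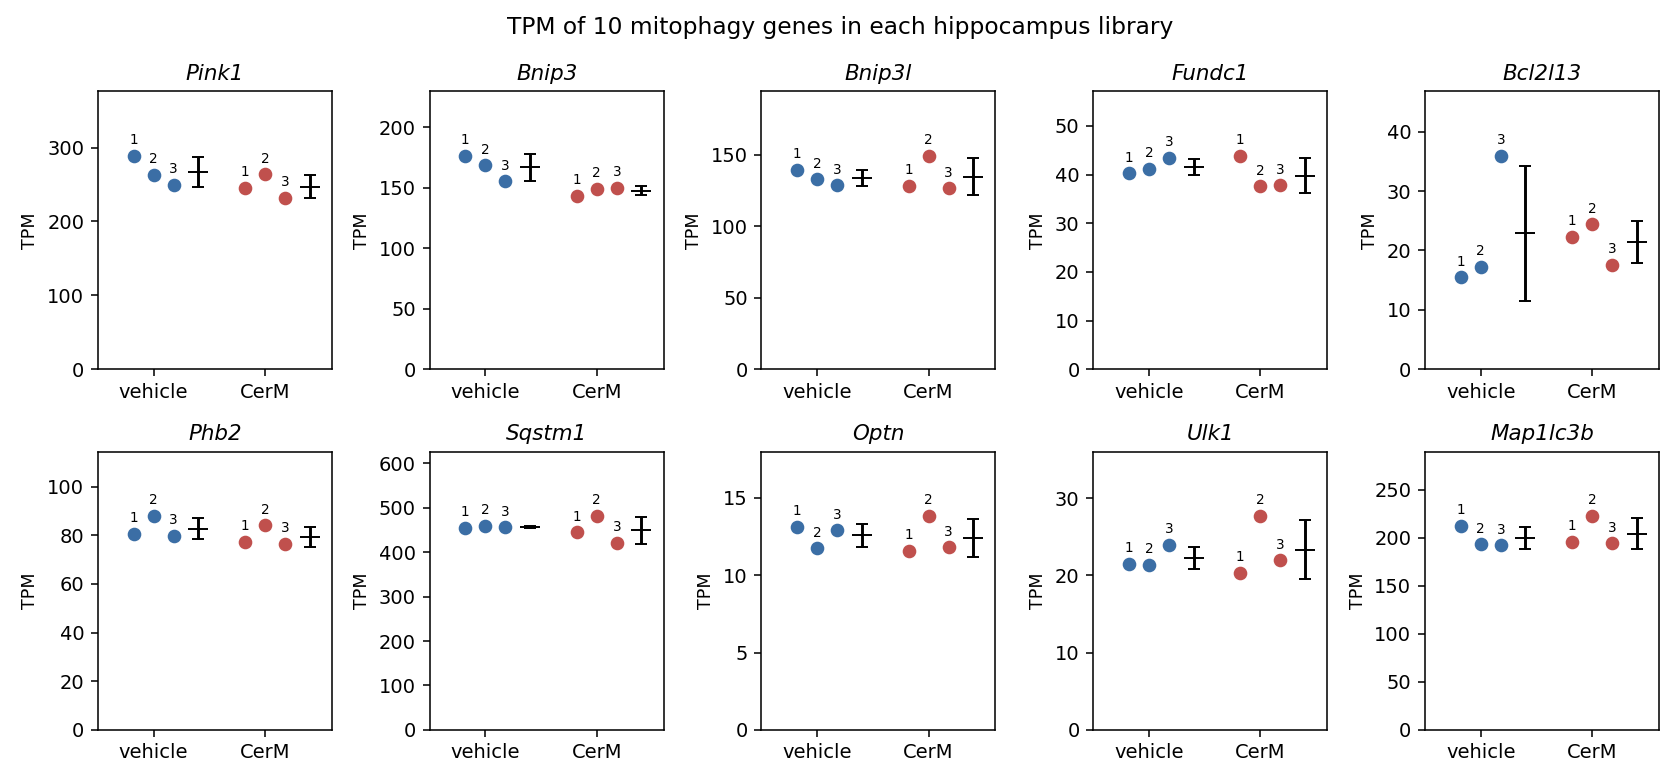
TPM of each gene (vertical axis, from 0, with its own scale) in the 3 vehicle libraries (blue) and the 3 CerM libraries (red), numbered by replicate, with the mean and SD of each group in black. Bnip3 alone has all CerM points (143 to 150 TPM) below all vehicle points (155 to 177 TPM), and Bcl2l13 has a single high point, vehicle replicate 3 at 36.0 TPM.

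The libraries held markers of neighbouring tissue in unequal amounts. All 9 fixed markers of hippocampal neurons were detected, and their summed TPM was 2191 to 2352 in CerM and 2340 to 2889 in vehicle. Snap25 made up most of these sums and was the only 1 of the 9 with a lower mean under CerM. Vehicle replicate 1 stood apart in several lists. It had the highest sum over the neuron markers, led by Snap25 at 2548 TPM, but the lowest Prox1, a marker of dentate granule neurons, at 8.53 TPM against 19.4 to 25.2. Vehicle replicate 1 was also lowest in C1ql2, Dsp, Fibcd1, Spink8 and Bok (Bok at 42.7 TPM against 61.0 to 83.9), but not in Wfs1 or Rbfox3. Its summed neocortex markers (5 genes) were at 250.1 TPM against 105.7 to 110.3, its oligodendrocyte markers (5 genes) at 3292 against 5070 to 6134, and its pituitary markers (4 genes) at 209.3 against 7.44 to 96.3. Its summed astrocyte markers (5 genes) were at 441.3 TPM against 582.6 to 769.9, though 1 of them, Aldh1l1, was highest in this library. CerM replicate 3 held 635.3 TPM over 5 fat cell markers, against 0.49 to 1.47 in the others. Summed choroid plexus markers were at 9304 and 10939 TPM in CerM replicates 1 and 3 and at 15710 in vehicle replicate 3, against 253 to 303 in the rest. In bulk tissue, fewer cells of a type and less RNA per cell cannot be told apart.

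Levels of the 10 genes spanned a wide range and kept nearly the same order in every library. Sqstm1 was the most abundant, with a mean of 452.9 TPM over the 6 libraries, above 98.0% of tested genes. Pink1 followed at 257.3 TPM, Map1lc3b at 201.6, Bnip3 at 157.3, Bnip3l at 134.1, Phb2 at 81.1 and Fundc1 at 40.7. Ulk1 (22.8 TPM), Bcl2l13 (22.2) and Optn (12.5) were lowest, and Optn stood above 46.4% of tested genes. Neighbours in this order had separate ranges over the 6 libraries except in 2 places. Bnip3 and Bnip3l overlapped in range, though Bnip3 was the higher of them in all 6 libraries, and Ulk1 and Bcl2l13 overlapped, with Ulk1 the higher in 4 of 6.

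Pink1, the kinase that starts the ubiquitin route, had 245.8, 263.8 and 232.4 TPM in CerM replicates 1 to 3 and 289.2, 262.8 and 249.6 in vehicle replicates 1 to 3. The highest value was in vehicle replicate 1. That library had the highest sums of neuron, neocortex and pituitary markers and the lowest sums of oligodendrocyte and astrocyte markers. The lowest value of Pink1 was in CerM replicate 3, the library with fat cell markers. The part of these tissues and cells in the difference was not tested. Its log2 fold change (CerM relative to vehicle, from log2(TPM + 1) values) was −0.11 ± 0.09 (SE), with a 95% confidence interval of −0.33 to 0.10 and limma's adjusted p at 0.989. Without both of those libraries it was −0.0083. They hold the highest and the lowest value, so leaving them out moves the fold change up whatever tissue they carry. Usp30, a deubiquitinase that removes ubiquitin from mitochondria, had a log2 fold change of 0.18 ± 0.18 and its groups overlapped.

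Bnip3 encodes a receptor of the outer mitochondrial membrane that binds LC3 and is a well-known target of hypoxia-inducible factors. It had 143.2, 149.5 and 150.3 TPM in CerM replicates 1 to 3 and 176.7, 168.7 and 155.3 in vehicle replicates 1 to 3. The groups came closest between CerM replicate 3 and vehicle replicate 3, at 150.3 and 155.3 TPM. The log2 fold change was −0.17 ± 0.08 (SE), with an interval of −0.37 to 0.02. This spans 0.774 to 1.01 times the vehicle level of TPM + 1, and the unadjusted p of 0.0735 became an adjusted p of 0.989 in limma. Bnip3 lay below 0 in all 17 other settings, from −0.22 without vehicle replicate 3 to −0.13 without vehicle replicate 1. Those that changed only the TPM minimum, the variance trend or the block left its fold change as it was. As its groups did not overlap, leaving out libraries, weighting samples or changing the pseudocount could not have moved it above 0. Those settings therefore repeat the lack of overlap and add nothing to it. Its highest value was again in vehicle replicate 1, with the marker sums given above. The part of those tissues and cells in the difference was not tested.

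The stretch of 250 bases before the annotated start of Bnip3 is shown with those of Pink1, the member with the next largest difference, and Map1lc3b, which lay slightly above 0, so that their sequence can be read beside the values. Sequences are from RefSeq on the mouse build GRCm38.p6, which is older than the build named in the submitters' processing notes. They run 5′ to 3′ along the gene at chr7:138909507-138909756 (minus strand), chr4:138326297-138326546 (minus strand) and chr8:121590188-121590437 (plus strand). Capitals mark ACGTG and its variant GCGTG, the core letters of the hypoxia-response element, on either strand.
Bnip3: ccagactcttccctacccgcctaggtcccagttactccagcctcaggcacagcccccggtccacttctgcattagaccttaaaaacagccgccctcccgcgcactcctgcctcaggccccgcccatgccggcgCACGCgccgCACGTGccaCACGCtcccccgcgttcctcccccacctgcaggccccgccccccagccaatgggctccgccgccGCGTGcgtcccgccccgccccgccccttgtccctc
Pink1: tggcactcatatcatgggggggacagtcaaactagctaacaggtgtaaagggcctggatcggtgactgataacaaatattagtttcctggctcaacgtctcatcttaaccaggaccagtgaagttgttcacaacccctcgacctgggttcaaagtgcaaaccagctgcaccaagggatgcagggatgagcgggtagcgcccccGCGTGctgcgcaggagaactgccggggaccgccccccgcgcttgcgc
Map1lc3b: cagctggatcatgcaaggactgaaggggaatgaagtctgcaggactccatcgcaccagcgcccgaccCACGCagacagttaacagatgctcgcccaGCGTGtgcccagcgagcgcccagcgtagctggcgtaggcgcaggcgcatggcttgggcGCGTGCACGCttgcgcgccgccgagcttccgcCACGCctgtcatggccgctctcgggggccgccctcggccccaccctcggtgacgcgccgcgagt
Bnip3 held ACGTG 2 times, on opposite strands of a single CACGTG (the E-box letters, which contain it), and GCGTG 3 times. Pink1 held GCGTG once and ACGTG not at all, and Map1lc3b held GCGTG 5 times. RefSeq promoters matched 9 of the 10 genes, all but Bnip3l. Among the 9, GCGTG occurred in 6, ACGTG in 2 (Bnip3 and Phb2) and CACGTG in 1 (Bnip3). For Phb2 and Optn, the bases just after the window were not found in a GENCODE transcript of the gene, so their annotated start is less sure. Of 32851 promoter windows of the same length, 16.6% held ACGTG, 28.2% held GCGTG and 6.02% held CACGTG. A match of these letters describes the sequence and is not a binding site.

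Bnip3l, the paralog of Bnip3 also known as NIX, did not share its lean. It had 128.3, 149.3 and 126.5 TPM in CerM and 139.5, 132.6 and 128.6 in vehicle, with CerM replicate 2 the highest of all 6 and the groups overlapping. Its log2 fold change was 0.01 ± 0.10 (SE), with an interval of −0.21 to 0.23. Set side by side within a library, Bnip3 stood at 1.12, 1.00 and 1.19 times the TPM of Bnip3l in CerM replicates 1 to 3. In vehicle replicates 1 to 3 the ratio was 1.27, 1.27 and 1.21. All 3 CerM ratios lay below all 3 vehicle ratios (1.10 ± 0.09 against 1.25 ± 0.04, SD), a quantity chosen after the values were seen and given without a test.

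Among the remaining receptors, the highest library stood at 1.17 times the lowest for Fundc1, 1.15 times for Phb2 and 2.32 times for Bcl2l13. Fundc1, an outer-membrane receptor used under low oxygen, had 43.9, 37.6 and 37.8 TPM in CerM and 40.3, 41.2 and 43.4 in vehicle. CerM replicate 1 was the highest of all and the other 2 CerM libraries the lowest, and the log2 fold change was −0.07 ± 0.10 (SE). Phb2, a prohibitin of the inner membrane that can bind LC3 once the outer membrane is broken, had 77.4, 84.2 and 76.5 TPM in CerM and 80.7, 87.9 and 79.8 in vehicle. The groups overlapped, at −0.06 ± 0.09.

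Bcl2l13, a BCL2-family protein proposed as the mammalian counterpart of yeast Atg32, had 22.3, 24.4 and 17.6 TPM in CerM and 15.5, 17.2 and 36.0 in vehicle. Vehicle replicate 3 alone was above all CerM libraries, and the other 2 vehicle libraries were below all of them. The log2 fold change of 0.00 therefore had a wide interval, −0.71 to 0.70. Without vehicle replicate 3 it was 0.36, with an unadjusted p of 0.0687 and an adjusted p of 0.756 in limma, and without vehicle replicate 1 it was −0.22. Its residual SD on the log2 scale exceeded that of 91.6% of tested genes, while those of the other 9 exceeded between 4.52% (Sqstm1) and 42.0% (Ulk1). Vehicle replicate 3 also had the most choroid plexus markers, whose part in this value was not tested. Exons of Bcl2l13 overlap those of Bid on the opposite strand over 628 bases in the GENCODE annotation, and the strand setting of the counting is not given in the sources used here. Bid was at 9.08 TPM in vehicle replicate 3 and at 8.87 to 11.6 over the libraries, and whether its reads enter the values of Bcl2l13 was not tested.

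**Figure D2:**
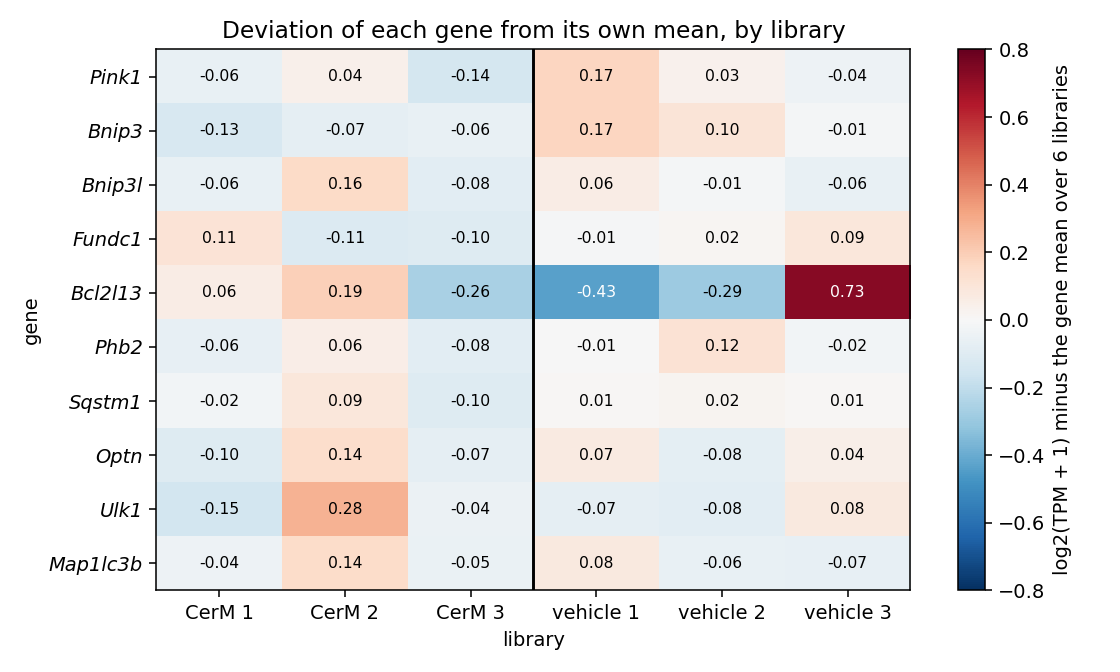
Log2(TPM + 1) of each gene (rows) in each library (columns) minus that gene's mean over the 6 libraries, with the value printed in each cell and red above, blue below the mean. CerM replicate 2 is above the gene mean for 8 of 10 genes, and the darkest cells belong to Bcl2l13 in vehicle replicates 1 (−0.43) and 3 (0.73).

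Sqstm1, which encodes the adaptor p62 that links ubiquitin to LC3, had 444.9, 481.4 and 421.0 TPM in CerM and 455.0, 458.9 and 456.1 in vehicle. The vehicle libraries lay between the CerM libraries, with an SD of 2.05 TPM against 30.4 in CerM, and the log2 fold change was −0.03 ± 0.08 (SE; interval −0.21 to 0.16). Exons of Sqstm1 overlap those of Mrnip on the opposite strand over 580 bases, and Mrnip averaged 19.0 TPM. Optn, an adaptor that works closely with the kinase TBK1, had 11.6, 13.8 and 11.8 TPM in CerM and 13.2, 11.8 and 12.9 in vehicle. Its groups overlapped fully, at −0.02 ± 0.12. Of the summed TPM of the adaptors Sqstm1, Optn, Nbr1, Tax1bp1 and Calcoco2, Sqstm1 made up 74.4% to 76.7% in every library. Nbr1 and Tax1bp1 averaged 69.9 and 64.2 TPM. Calcoco2, which encodes NDP52, was listed at 0.00 to 0.30 TPM and did not enter the test. Tbk1, which phosphorylates these adaptors, had a log2 fold change of 0.03 ± 0.18.

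Ulk1, the kinase that starts autophagosome formation, had 20.4, 27.7 and 22.0 TPM in CerM and 21.5, 21.4 and 24.0 in vehicle. CerM replicate 2 was the highest and CerM replicate 1 the lowest, and the log2 fold change of 0.05 ± 0.14 (SE) became −0.07 without CerM replicate 2. Its paralog Ulk2 averaged 25.5 ± 1.68 TPM (SD) under CerM and 23.6 ± 0.65 under vehicle, and its groups did not overlap, though 24.5 TPM in CerM replicate 3 nearly met 24.3 in vehicle replicate 3. Their partners Atg13, Rb1cc1 and Atg101 had log2 fold changes of 0.11 ± 0.12, −0.17 ± 0.19 and −0.15 ± 0.12.

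Map1lc3b encodes LC3B, a small protein that is joined to the autophagosome membrane and bound by receptors and adaptors. It had 195.4, 222.4 and 194.0 TPM in CerM and 212.4, 193.1 and 192.1 in vehicle. One library in each group, CerM replicate 2 and vehicle replicate 1, was higher than the rest, and the log2 fold change was 0.03 ± 0.09 (SE; interval −0.18 to 0.25). Map1lc3b was not the main gene of its family in this tissue. Gabarapl1 averaged 808.4 TPM, Gabarap 237.3, Map1lc3a 206.4 and Gabarapl2 202.0, and Gabarapl1 made up 47.2% to 50.1% of the summed TPM of these 5 genes. The other 4 of the family had log2 fold changes below 0, at −0.10 ± 0.10 for Gabarapl1, −0.06 ± 0.08 for Gabarap, −0.21 ± 0.14 for Map1lc3a and −0.10 ± 0.08 for Gabarapl2, none past the test. The share of Map1lc3b in the family was 12.2%, 13.0% and 13.1% in CerM replicates 1 to 3 and 11.4%, 11.7% and 11.8% in vehicle. These shares did not overlap between the groups, a pattern seen after the values were known and given without a test.

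**Figure D3:**
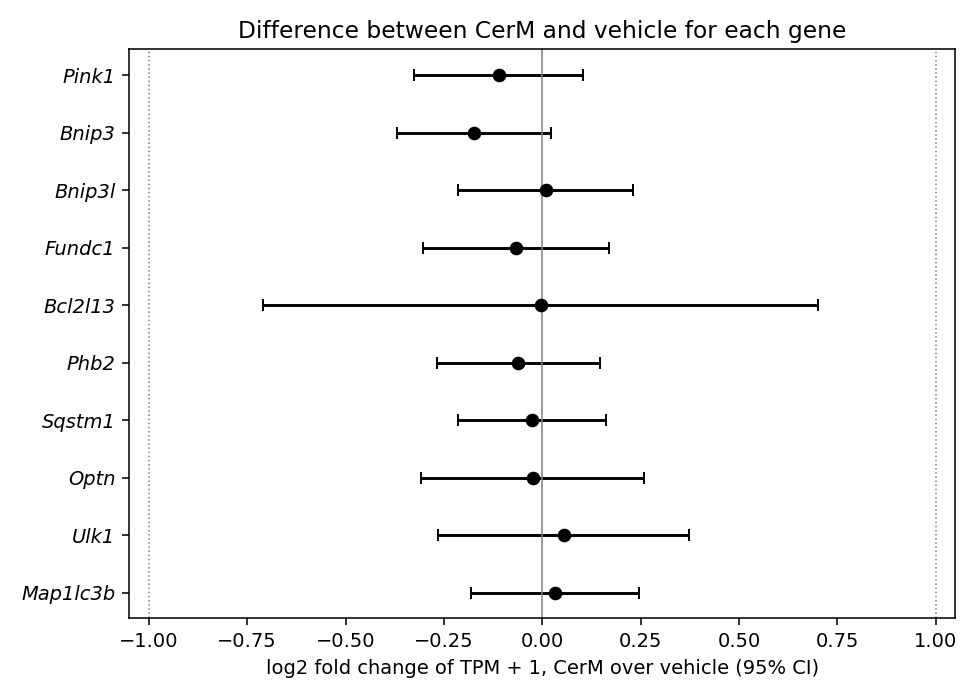
Log2 fold change of TPM + 1, CerM over vehicle, for each gene (points) with its 95% confidence interval from the limma fit (bars); the dotted lines mark a 2-fold difference in either direction. All 10 intervals include 0 and all lie within the dotted lines, with Bcl2l13 the widest (−0.71 to 0.70).

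Of the 10 genes, 7 had a log2 fold change below 0 and 3 above, with a median of −0.03. Across all tested genes, 41.2% lay below 0 and the median was 0.03. The intervals of 9 of the 10 excluded a 1.5-fold difference of TPM + 1 in either direction, and that of Bcl2l13 excluded 2-fold. Of all 14916 tested genes, 9506 had intervals within 1.5-fold and 13449 within 2-fold, so such intervals are common here. At an unadjusted p below 0.05, 0 of the 10 would have been called, against 1.62% of all tested genes on the lower side and 1.07% on the higher side.

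Most of these genes were highest within CerM in replicate 2. That library was the highest of the 3 CerM libraries for 8 of 10, all but Bnip3 and Fundc1, and the highest of all 6 for 5 of 10 (Sqstm1, Map1lc3b, Bnip3l, Ulk1 and Optn). Among all tested genes it was the highest CerM library for 59.9% and the highest of all for 41.1%, so the table as a whole leaned the same way. Without it, all 10 genes lay below 0, with a median of −0.09, where 55.7% of all tested genes lay below 0 and their median was −0.02. Without CerM replicate 3, which carried the fat cell markers and was the lowest CerM library for 6 of the 10, only 4 lay below 0 and the median was 0.01. In that setting 37.7% of all tested genes lay below 0, with a median of 0.05. The lean of the list as a whole thus turned on which CerM library was kept, as did that of all tested genes. Bnip3, Pink1, Fundc1 and Phb2 were below 0 in all 17 settings, though the TPM minimum, variance trend and block cannot change a sign. For Bnip3, whose groups did not overlap, neither can the pseudocount, sample weights or libraries left out.

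**Figure D4:**
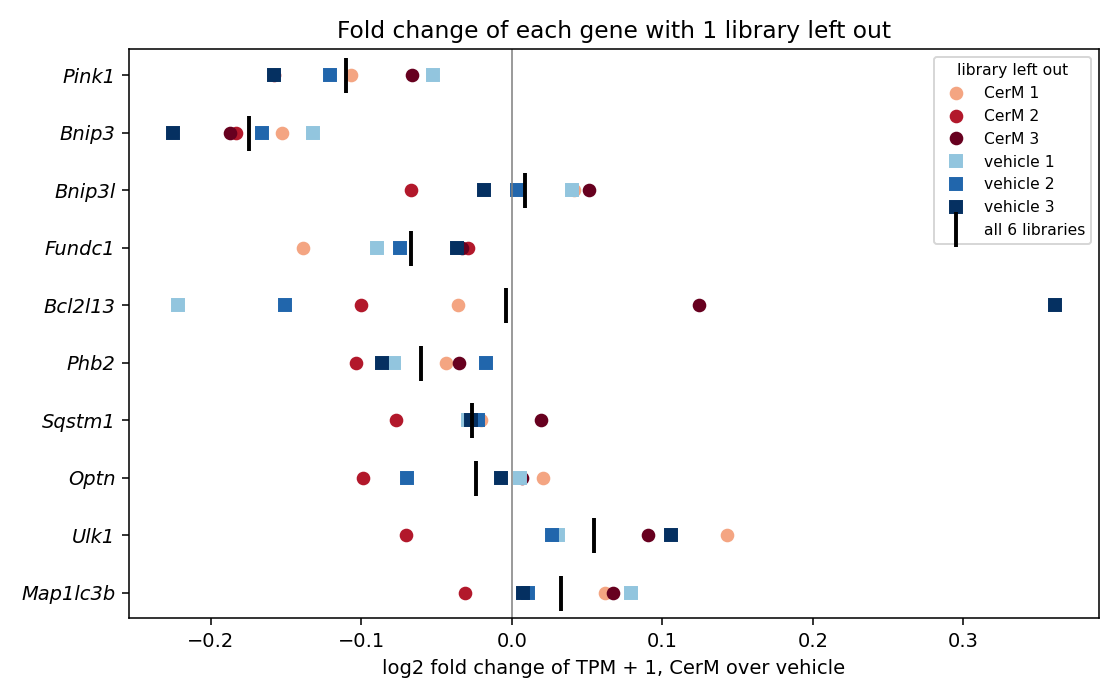
Log2 fold change of TPM + 1, CerM over vehicle, for each gene with 1 library left out (circles for CerM, squares for vehicle libraries) and with all 6 (black bar). Bnip3, whose groups do not overlap, cannot change sign here and runs from −0.22 to −0.13. Bcl2l13 moves from −0.22 without vehicle replicate 1 to 0.36 without vehicle replicate 3.

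Of 84 further mitophagy and autophagy genes, 83 were tested, 0 passed limma's test in either direction, 38 lay below 0 and 45 above, and the median log2 fold change was 0.01. The groups did not overlap in 4 lower genes (4.04% of all tested genes) and 2 higher ones (3.26%). The lower ones were Becn1, Vps41, Usp15 and Marchf5, and the higher ones Ulk2 and Atg4a; Usp15 and Marchf5 are named after their values were seen. Further receptors, such as Fkbp8 (348.9 TPM over all libraries), Nipsnap1 (83.1) and the prohibitin partner Phb (150.4), had 7 of 9 genes below 0, with a median of −0.07. Cargo adaptors had 1 of 6 below 0, nucleation and membrane supply genes 5 of 16, and lysosome fusion genes 6 of 14.

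In the role groups, the genes with the smallest unadjusted p were as follows. Becn1, the core of the kinase complex that nucleates autophagosomes, had 140.7, 148.4 and 152.3 TPM in CerM and 176.4, 167.0 and 153.3 in vehicle, values close to those of Bnip3 in each library, and a log2 fold change of −0.17 ± 0.09 (SE). Atg4a, a protease that trims LC3-family proteins, was the only one of the 83 with an unadjusted p below 0.05. Across all tested genes, 1.07% had such a p with CerM higher, and 1 of 83 is not read as a result. Atg4a had 6.11, 6.67 and 7.15 TPM in CerM and 5.49, 4.41 and 4.74 in vehicle, for a log2 fold change of 0.38 ± 0.14 and an adjusted p of 0.989 in limma. Tomm7, which helps hold PINK1 on damaged mitochondria, had 49.4, 46.7 and 47.7 TPM in CerM and 73.6, 60.1 and 45.6 in vehicle. Its log2 fold change was −0.29 ± 0.17, and the vehicle libraries alone spanned all CerM values. Vps41, a part of the lysosomal tethering complex, averaged 83.0 ± 2.11 TPM (SD) under CerM and 90.2 ± 1.22 under vehicle. Hif1a, whose protein acts on Bnip3 under low oxygen, was at 0.12 ± 0.10, Phb at −0.18 ± 0.15, Wdfy3 at 0.28 ± 0.22 and Atg101 at −0.15 ± 0.12.

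**Figure D5:**
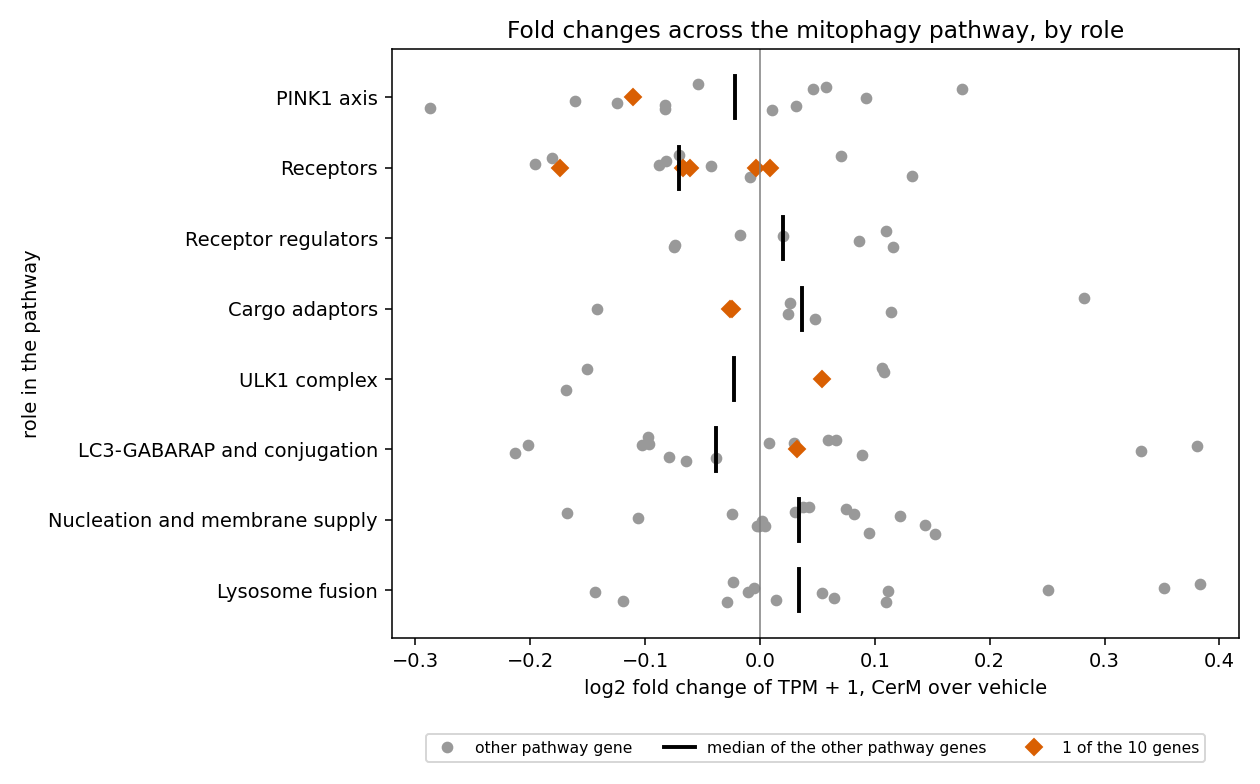
Log2 fold change of TPM + 1, CerM over vehicle (horizontal axis), for the 83 further pathway genes (grey points, spread vertically for legibility) and the 10 genes described here (orange diamonds), by role in the pathway; black bars are medians of the grey points. Medians of the 8 role groups lie between −0.07 for receptors and 0.04 for cargo adaptors.

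Near-identical copies held little of the TPM in this table. Besides the overlapping genes Bid and Mrnip, transcripts of at least 95% identity over 200 bases or more were found for Bnip3, Bnip3l and Map1lc3b. The Bnip3l pseudogene Bnip3l-ps matched at 99.4% and was listed at 0 TPM in all libraries, as were 4 copies of Map1lc3b. For Bnip3, the copy with the highest TPM, AC160336.1, averaged 0.16 TPM, or 0.0996% of Bnip3. Gm23547, which shares 155 exon bases with Phb2 on the same strand, averaged 27.2 TPM. How reads were shared between a gene and its copies is not given in the sources used here.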

How the data were processed

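Per the labels' protocols, TRIzol extraction and a DNase I step preceded TruSeq libraries from 6 mouse hippocampus samples. The submitters' processing notes name HISAT2, StringTie, RSEM and GRCm39, without versions or roles. The authors deposited TPM values per gene, which keep no sequencing depth, so the reads behind a value are unknown and no counting interval was made. TPM totals were 993379 to 995403 per library. Groups and replicate numbers came from sample titles.

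Genes with a mean of at least 1 TPM were tested with limma 3.58.1 (R 4.3.3) on log2(TPM + 1) with a variance trend, two-sided, CerM against vehicle, without a replicate block. Benjamini-Hochberg adjustment ran over every gene tested. Fold changes on this scale understate those of low genes. The fit was also run on simulated data, in which it did not call every changed gene. Copies were sought with blastn 2.17.0 in GENCODE M21 transcripts. Figures used matplotlib 3.10.9 (Python 3.11.15). Alternatives changed the pseudocount, TPM minimum, scaling, variance model, weights, block and libraries.

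The 10 genes, the pathway list and the markers were chosen with earlier results of these data known. Named genes were all 10, the smallest p of each role group, and 17 partners or paralogs, of which 1 is not reported here. Of 85 listed pathway genes, Ppptc7 matched no row and was not analysed here.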

Additional observations from a re-analysis of the deposited data

How the results depend on the processing

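Over 17 alternative settings, 0 of the 10 genes and 0 of the pathway genes were called by limma, and the smallest adjusted p among the 10 was 0.214, for Bnip3 with sample weights (0.214 to 1.00 over its settings). At an unadjusted p below 0.05 the main setting had 0 of the 10, sample weights had 3 (Bnip3 at 0.0139, Phb2 at 0.0344 and Pink1 at 0.0484 in limma) and no TPM minimum had 1 (Bnip3 at 0.0464). With sample weights, limma's smallest adjusted p over all tested genes was also lower, at 0.194 against 0.989 in the main setting. The share of all tested genes at an unadjusted p below 0.05 was not counted in either setting. These counts are therefore not read as a result about the 10. Over all genes the count called was 0 with all 6 libraries kept, 1 to 8 with each library left out in turn, and 1 without the pair of CerM replicate 3 and vehicle replicate 1; the cause was not tested. Bnip3, Pink1, Fundc1 and Phb2 were below 0 in all settings, in a range of −0.22 to −0.13 for Bnip3, −0.16 to −0.0083 for Pink1, −0.14 (without CerM replicate 1) to −0.029 (without CerM replicate 2) for Fundc1, and −0.16 (sample weights) to −0.017 (without vehicle replicate 2) for Phb2. Changing the TPM minimum, the variance trend or the block did not alter any of these fold changes. Since the groups of Bnip3 did not overlap, only the scaling settings could have changed its sign. Signs of log2 fold changes near 0 turned elsewhere. Sqstm1 was 0.038 with quantile scaling and 0.017 without both of those libraries, and −0.077 to 0.019 with each library left out in turn. Bnip3l was −0.020 with median-ratio scaling, −0.040 with sample weights, and −0.067 to 0.052 with libraries left out. Bcl2l13 was 0.011 on TPM without mitochondrial DNA genes, 0.074 with sample weights, and −0.22 to 0.36 with libraries left out. Optn was 0.036 without both libraries and −0.099 to 0.021 with libraries left out. Ulk1 ran from −0.070 to 0.14 and Map1lc3b from −0.031 to 0.079 with libraries left out, each below 0 without CerM replicate 2. Genes of the pathway below 0 ran from 31 to 63 of those tested, the highest without CerM replicate 2.

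With the replicate number as a block, 0 genes were called and Bnip3 stood at a log2 fold change of −0.17 (limma adjusted p 0.980). Deviations of same-numbered samples from their group means correlated at 0.0083 to 0.22, and 5 of 6 samples correlated best with their own number. The main fit used no block because the labels state no pairing, and whether the numbers mark pairs was not tested. TPM keeps no depth, which limits what can be said of low genes such as Calcoco2.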
